A study of Potamopyrgus antipodarum with 6 samples.

Results

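HSPA8, RAB11B and SMAD3, the 3 genes of the endocytosis pathway described here, were followed through DNA methylation signal in foot tissue of the asexual freshwater snail Potamopyrgus antipodarum. The members are the windows of the differentially methylated regions (DMRs) that carry these gene names in the study, here called spans, plus the windows to either side out to the first run of 9 windows with no count in any pool. The rule took 49 of 739509 windows of 100 bp, 36 at HSPA8, 6 at RAB11B and 7 at SMAD3, and 21 of the 49 lay inside the spans. Positions refer to the joined reference, in which transcriptome contigs were set end to end, so they are no chromosome positions. The HSPA8 span ran from 1900401 to 1901400 on contig 00882, the RAB11B span from 11444001 to 11444400 on contig 06157, and the SMAD3 span from 53358601 to 53359300 on contig 36712. The contigs are assembled transcripts, and which of their windows are coding or UTR is not given in the sources used here. The gene names rest on similarity to sequences of other species.

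Methylated DNA immunoprecipitation (MeDIP) with sequencing was compared between 3 pools from River 1, a fast-flowing reach of the Snake River (Ritter Island), and 3 pools from Lake 2, Lake Washington, which has no current. Each pool held foot DNA of 10 field-collected snails that had been kept for some days in the laboratory, and their age was not given in the sources used here. The snails are parthenogenetic females of a single introduced clone, as the study describes them. Each habitat is represented here by 1 site, so current speed and place cannot be told apart. River 1 pools are numbered 7, 8 and 9 as in the deposited table, although the titles of those samples give other numbers, and Lake 2 pools are numbered 4, 5 and 6.

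Endocytosis brings membrane, receptors and their ligands into the cell in coated vesicles, which lose their coat, fuse with early endosomes and are then sorted for return to the surface or for breakdown. HSPA8 encodes the constitutive heat shock cognate chaperone, which strips clathrin from coated vesicles and also folds proteins in the cytosol. RAB11B encodes a small GTPase of the recycling endosome, and SMAD3 encodes a transducer of TGF-beta receptors, whose signalling passes through endosomes. In molluscs, as in many invertebrates, cytosine methylation is sparse and lies mainly within gene bodies.

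The pools held between 3317802 and 4994212 counts, and 30.0% of all windows had at least 1 count. No window exceeded 300 counts in a pool, and the member windows held at most 116. Levels are given as CPM, a pool's count divided by its total and set to a common scale of 1000000, after correction with edgeR's TMM factors. Over the 151608 windows tested, the median log2 fold change was -0.01. A negative log2 fold change, taken as River 1 minus Lake 2, means less MeDIP signal in River 1. The methods describe lanes shared by river and lake libraries, and give no extraction batch, so an extraction that differed between the sites cannot be told apart from the site.

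The border of the HSPA8 contig needed a check before its values were read. A run of 8 empty windows, from 1899401 to 1900200, split the 36 windows into an upstream block of 12 windows (1898201 to 1899400) and a block of 16 windows that holds the span (1900201 to 1901800). The reference held 1979 runs of exactly 8 empty windows, and in all 32 of them with a named contig on each side the 2 names differed. Contigs were named only where the study listed a DMR, and it extended DMRs across gaps of up to 1000 bp. The same name could thus seldom stand on both sides of such a run, and the names decide little. Runs of exactly 7 empty windows numbered only 4, against 22906 of 9 and 9006 of 10. In number, runs of 8 thus stood with the longer runs that mark a border. The upstream block therefore more likely belongs to another contig than to that of HSPA8. The span shares, sums and contig fit that rest on it are also given without it. With that block, the contig would be number 48 by length among 42150.

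Less MeDIP signal was measured in River 1 than in Lake 2 in the spans of all 3 genes. The summed signal of the HSPA8 span was 57.8, 51.1 and 43.7 CPM in River 1 pools 7, 8 and 9, and 75.7, 66.5 and 82.0 CPM in Lake 2 pools 4, 5 and 6. The RAB11B span held 12.5, 7.29 and 9.48 CPM in River 1, and 20.4, 17.8 and 17.6 CPM in Lake 2. The SMAD3 span held 27.2, 20.0 and 19.6 CPM in River 1, and 28.2, 28.8 and 32.0 CPM in Lake 2. The sites did not overlap in any of the spans, and pool 7 was the highest River 1 pool in each of them, within 1 CPM of the lowest Lake 2 pool at SMAD3. These counts are not large, with 23 to 227 per River 1 pool and 66 to 394 per Lake 2 pool, and the smallest stand at RAB11B.

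As means, the HSPA8 span had 50.8 ± 7.07 CPM in River 1 and 74.7 ± 7.82 CPM in Lake 2 (SD, n = 3 pools each), which is 32.0% lower in River 1. RAB11B had 9.75 ± 2.60 CPM in River 1 and 18.6 ± 1.56 CPM in Lake 2, a value 47.5% lower in River 1. SMAD3 had 22.3 ± 4.30 CPM in River 1 and 29.7 ± 2.01 CPM in Lake 2, 24.9% lower in River 1. On the log2 scale the differences of the sums were -0.56, -0.93 and -0.41. The recycling GTPase thus showed the greatest proportional difference of the 3, and the TGF-beta transducer the smallest. The study called these spans on the same pools and the same contrast, so the differences are a description and no test is given for them. In these span sums the pools of River 1 varied more than those of Lake 2 in proportion to their means, with a coefficient of variation of 13.9%, 26.7% and 19.3% in River 1 for HSPA8, RAB11B and SMAD3, against 10.5%, 8.38% and 6.77% in Lake 2. River 1 also had the lower counts, which raises this measure. Over the block of 16 windows that holds the HSPA8 span the order was reversed, with 8.17% in River 1 and 9.27% in Lake 2.

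**Figure D1:**
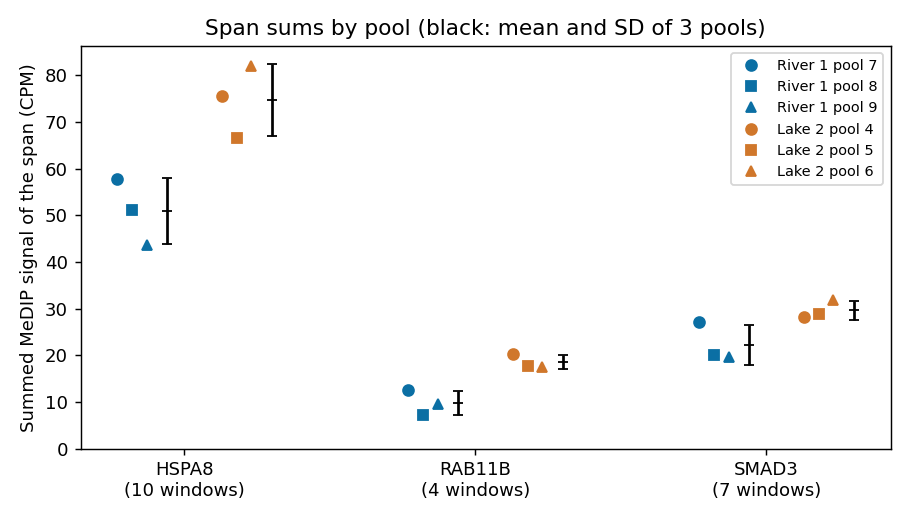
Summed MeDIP signal (CPM, y axis from 0) of the spans of HSPA8, RAB11B and SMAD3 in each pool of River 1 (blue) and Lake 2 (orange), with the mean and SD of 3 pools in black. The River 1 pools lie below the Lake 2 pools at each gene, with the closest approach at SMAD3, where pool 7 had 27.2 CPM and pool 4 had 28.2 CPM.

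Per window of 100 bp, HSPA8 had the strongest signal of the 3 genes at both sites, 5.08 ± 0.707 CPM in River 1 and 7.47 ± 0.782 CPM in Lake 2. SMAD3 followed in River 1 with 3.18 ± 0.614 CPM, while it had 4.24 ± 0.287 CPM in Lake 2. RAB11B had 2.44 ± 0.650 CPM in River 1 and 4.64 ± 0.389 CPM in Lake 2. The means of RAB11B and SMAD3 thus stood in opposite order at the 2 sites, but within each site their ranges of mean ± SD touched. Both genes were measured in the same pools, which these ranges leave out of account, so the order is a description only. The level was not used by the rule, but a window with very few counts could hardly be called as a DMR. A level above that of sparse windows is therefore partly fixed by how the spans were chosen. The median of the windows tested was 2.20 CPM, and the lowest span window, 11444301 of RAB11B, had 2.49 CPM. The median window with a count had 1.03 CPM, and the span windows lay above 74.9% to 88.6% of all windows with a count at HSPA8, 68.4% to 80.8% at RAB11B and 72.0% to 80.8% at SMAD3. All 21 span windows were therefore more strongly captured than most covered windows, and none lay in the highest 10% of these. Most of the 739509 windows were empty, however. Among all windows the span windows lay above 92.5% to 96.6% at HSPA8, 90.5% to 94.2% at RAB11B and 91.6% to 94.2% at SMAD3. By that ranking all 21 lay in the highest 10%.

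**Figure D2:**
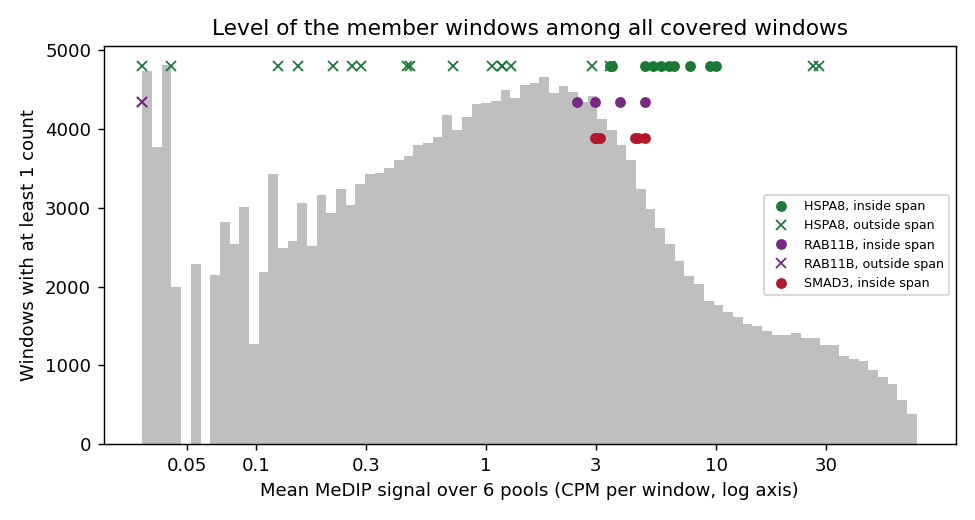
Number of windows (y axis) by mean MeDIP signal over the 6 pools (CPM per window, log axis) for all windows with at least 1 count, with the member windows marked above, those inside the spans as dots and those outside as crosses. The span windows sit right of the median of 1.03 CPM, and the crosses at 27.9 and 26.4 CPM are windows upstream of HSPA8.

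Of the 21 span windows tested, 3 were lower in River 1 at a Benjamini-Hochberg adjusted p-value under 0.05 in edgeR's quasi-likelihood test, 1 in each gene. Among all 151608 windows tested, 1.42 percent were called in either direction and 1.11 percent were called lower in River 1. At an unadjusted p-value under 0.05 there were 14 span windows, against 14.3 percent of all windows in either direction and 9.0 percent lower in River 1, and none passed 1e-05, which 0.145 percent of all windows did. In 10 of the 21 every River 1 pool lay below every Lake 2 pool, which held for 10.9 percent of all windows, and 18 of the 21 had a log2 fold change below 0, against 50.4 percent of all windows. The median over the span windows was -0.55. Since the spans were picked by this contrast, nothing is read from these counts. The calls also rested on the fit, since DESeq2's Wald test called 0 of the 21 with 4 at an unadjusted p-value under 0.05, and only 10 of all 151608 windows.

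In HSPA8, the called window was 1900801, the fifth window of the span. It held 7.89, 4.76 and 2.87 CPM in River 1 pools 7, 8 and 9 (31, 15 and 13 counts), and 9.99, 8.64 and 12.3 CPM in Lake 2 pools 4, 5 and 6 (52, 36 and 46 counts). No River 1 pool reached the lowest Lake 2 pool, and pool 9 had the least. The log2 fold change was -1.0 with an SE of 0.24 and an adjusted p-value of 0.0183 in edgeR's quasi-likelihood test. Leaving out single pools ended the call 4 times, with an adjusted p-value of 0.056 when pool 8 was removed, 0.231 for pool 9, 0.0508 for pool 4 and 0.137 for pool 6.

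All 10 windows of the HSPA8 span had log2 fold changes below 0, from -1.0 to -0.22. The signal of the span had a shoulder at its start and a peak in windows 5 to 7, and was split by this shape after the values were seen. Windows 1 to 4 summed to 14.5 ± 0.946 CPM in River 1 and 22.4 ± 2.77 CPM in Lake 2. Windows 5 to 7 summed to 21.2 ± 5.77 CPM in River 1 and 32.9 ± 6.03 CPM in Lake 2, and windows 8 to 10 to 15.2 ± 1.84 CPM in River 1 and 19.4 ± 3.47 CPM in Lake 2. The site difference was thus of like size in the first and the middle stretch, with log2 differences of -0.63 and -0.64, and was -0.35 in the last. The greatest spread among River 1 pools lay in the peak, where pool 7 had 26.7 CPM and pool 9 had 15.2 CPM. Pool 9 was also the one pool whose strongest span window was the first one, 1900401, with 7.06 CPM, against 3.82 CPM in pool 7 and 5.07 CPM in pool 8. In pools 7 and 8 the strongest was 1900901, with 9.68 and 8.88 CPM.

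**Figure D3:**
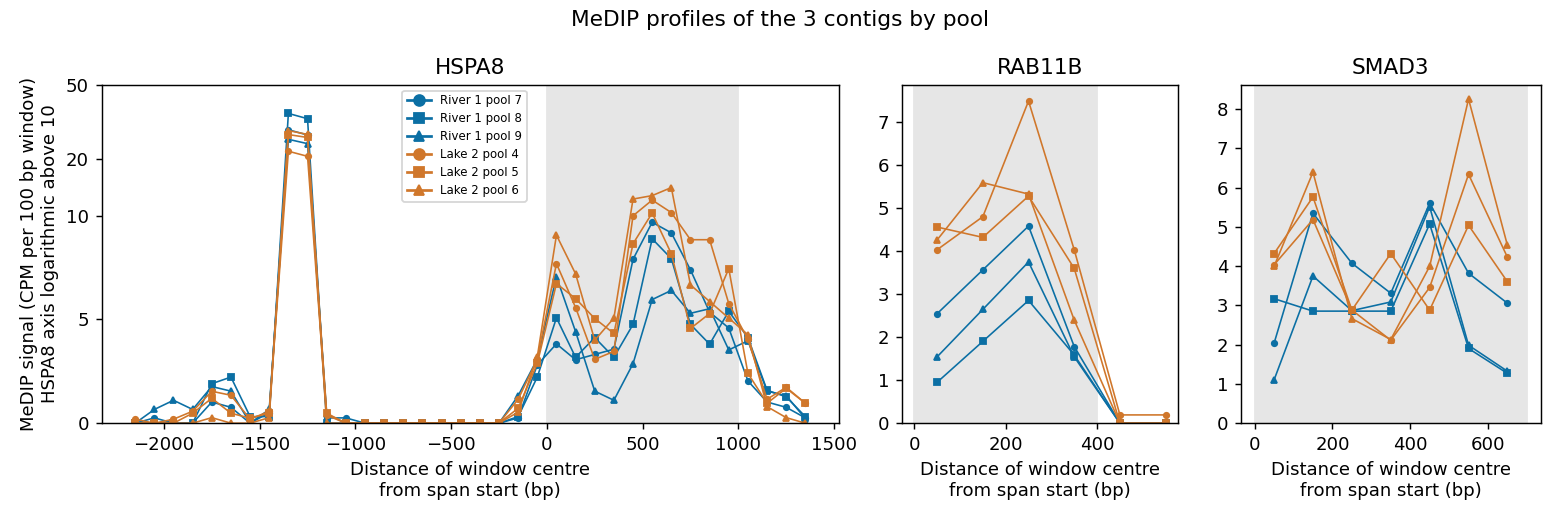
MeDIP signal (CPM per 100 bp window, y axis) along the contigs of HSPA8, RAB11B and SMAD3 by distance from the start of the span (bp), 1 line per pool, River 1 in blue and Lake 2 in orange, spans shaded, with the HSPA8 axis logarithmic above 10. At RAB11B the blue lines run below the orange ones in each window of the span, at SMAD3 they cross, and the tall peak about 1300 bp before the HSPA8 span lies beyond the 8 empty windows.

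Next to the HSPA8 span the sites were not separated. The 6 flanking windows in the block of the span summed to 7.13, 9.83 and 11.5 CPM in River 1, and 12.1, 9.60 and 9.06 CPM in Lake 2. Their means were 9.48 ± 2.19 CPM in River 1 and 10.3 ± 1.62 CPM in Lake 2 (two-sided exact permutation test, p = 0.7). With 3 pools against 3 the smallest p this test allows is 0.1. Of 11 tested windows outside the span, some of them in the upstream block, 0 were called by edgeR's quasi-likelihood test, by its exact test or by DESeq2. An unadjusted p-value under 0.05 was reached by 0 in any of these. Over all windows the quasi-likelihood test called 1.42 percent, and 14.3 percent had an unadjusted p-value under 0.05. With 11 windows, little can be read from a count of 0. DMR edges were placed where the next 1000 bp held no p-value under 0.1, so the small differences next to the span are partly fixed by how it was drawn. Among the outside windows, the one with the smallest p-value was 1898701 in the upstream block, with 3, 7 and 7 counts in River 1 and 7, 2 and 0 counts in Lake 2, a log2 fold change of 1.07 (SE 0.63) and an adjusted p-value of 0.452 in edgeR's quasi-likelihood test.

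The strongest signal of the HSPA8 windows lay in the upstream block, whose part in this contig is in doubt. Window 1899001 had 113, 111 and 116 counts in River 1, and 115, 113 and 107 counts in Lake 2, and window 1899101 had 106, 104 and 110 counts in River 1, and 108, 109 and 102 counts in Lake 2. At a mean of 27.9 and 26.4 CPM they lay above 95.7% and 95.4% of the windows with a count. The counts of these windows hardly varied between pools although the pool totals differed 1.51-fold. The variance of the 6 counts divided by their mean was 0.0916 and 0.0892, against a median of 2.08 over the 3648 windows with a mean count from 100 to 130, of which 104 (2.85%) were as low as the higher of the pair or lower. Since CPM divides by the pool total, pool 8, with the fewest counts, had the highest CPM there, 68.2 CPM over both windows. The log2 fold change at 1899001 was 0.20 (SE 0.15, edgeR's quasi-likelihood adjusted p = 0.576), and what set the near-constant counts was not tested.

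In the upstream block the sites stood in the opposite order to the span, and they were separated in CPM but not in raw counts. Its 12 windows summed to 58.8, 72.9 and 56.67 CPM in River 1, and 47.8, 56.65 and 56.2 CPM in Lake 2. Every River 1 pool lay above every Lake 2 pool, pools 9 and 5 being nearly equal. The log2 difference of the means was 0.23 (two-sided exact permutation test, p = 0.1, the smallest this design allows). A test of this block alone was not planned. The raw counts overlapped, with 231, 230 and 257 in River 1, and 249, 236 and 211 in Lake 2. Among all single windows tested, 7.75 percent had every River 1 pool above every Lake 2 pool. The 2 near-constant windows hold most of this signal, with 57.9 ± 9.36 CPM in River 1 and 50.6 ± 6.83 CPM in Lake 2, of block sums of 62.8 ± 8.84 CPM in River 1 and 53.6 ± 4.97 CPM in Lake 2.

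Measures that take in the upstream block changed with it. All 26 windows outside the span summed to 72.3 ± 9.15 CPM in River 1 and 63.8 ± 3.40 CPM in Lake 2 (exact permutation test, p = 0.2), and without the 2 strongest windows to 14.4 ± 4.06 CPM in River 1 and 13.2 ± 3.76 CPM in Lake 2 (exact p = 0.7). The span held 46.7%, 38.2% and 39.1% of the contig's counts in River 1, and 55.8%, 50.1% and 55.7% in Lake 2. The difference of the mean shares was -12.6 percentage points with the upstream block and -3.86 without it. Fitted as 1 contig, HSPA8 had a log2 fold change of -0.18 (SE 0.12, edgeR's quasi-likelihood adjusted p = 0.490), against -0.51 with an adjusted p of 0.0503 for the block of the span alone. That block summed to 60.3 ± 4.93 CPM in River 1 and 85.0 ± 7.88 CPM in Lake 2. Of its 1813 counts, 1565 lay in the span, which the study called on these pools. The fit of the block is therefore no separate evidence for the span difference.

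The RAB11B span was the shortest and most uniform of the 3. In each of its 4 windows every River 1 pool lay below every Lake 2 pool, and all 4 had an unadjusted p-value under 0.05. The strongest window, 11444201, had 4.58, 2.85 and 3.75 CPM in River 1, and 7.49, 5.28 and 5.33 CPM in Lake 2, with a log2 fold change of -0.70 (SE 0.26, edgeR's quasi-likelihood adjusted p = 0.181). This was the smallest difference of the 4 windows, and the greatest stood at the first window, 11444001. It held 2.55, 0.951 and 1.54 CPM in River 1 (10, 3 and 7 counts), and 4.03, 4.56 and 4.26 CPM in Lake 2 (21, 19 and 16 counts). Its log2 fold change was -1.30 (SE 0.35) with an adjusted p-value of 0.0431 in edgeR's quasi-likelihood test. The call was lost when any pool other than 7 was left out, and the adjusted p-value was then 0.173 (pool 8), 0.178 (pool 9), 0.117 (pool 4), 0.0839 (pool 5) and 0.135 (pool 6).

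Pool 8 had the lowest span sum of RAB11B, and its 7.29 CPM rest on 23 counts. The 2 windows outside the span held 2 counts in all, both in Lake 2 pool 4, and were too low to be tested. Fitted as 1 contig, RAB11B had a log2 fold change of -0.94 (SE 0.23, edgeR's quasi-likelihood adjusted p = 0.0418), where 1.42 percent of the 36661 contigs tested were called in either direction and 1.14 percent lower in River 1. This value carries nearly the same counts as the span and is no separate evidence for it. The contig was no longer called without pool 8 (adjusted p = 0.109), 9 (0.132), 4 (0.160), 5 (0.0504) or 6 (0.128).

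SMAD3 differed from the other genes in the shape of its profile. Its span fills the contig, so that there is no outside to compare. The strongest window, 53358701, had 5.35, 2.85 and 3.75 CPM in River 1, and 5.19, 5.76 and 6.39 CPM in Lake 2, with a log2 fold change of -0.50 (SE 0.26, edgeR's quasi-likelihood adjusted p = 0.390). Pool 7 lay within the Lake 2 values there. The called window, 53359101, had 3.82, 1.90 and 1.98 CPM in River 1 (15, 6 and 9 counts), and 6.34, 5.04 and 8.26 CPM in Lake 2 (33, 21 and 31 counts). At -1.32 (SE 0.29) with an adjusted p-value of 0.013 in edgeR's quasi-likelihood test it had the greatest log2 fold change of the 21 span windows. The call was lost without pool 8 (adjusted p = 0.0574), 9 (0.102) or 6 (0.116).

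The window just before it went the other way. Window 53359001, singled out after its values were seen, had 5.60, 5.07 and 5.51 CPM in River 1, and 3.46, 2.88 and 4.00 CPM in Lake 2. Every River 1 pool lay above every Lake 2 pool, as in 7.75 percent of all windows tested, and the log2 fold change of 0.66 (SE 0.27) did not pass edgeR's quasi-likelihood test (adjusted p = 0.230). In each River 1 pool this was the strongest window of SMAD3, while pools 4 and 6 of Lake 2 had theirs in the next window and pool 5 in the second window. Split by the sign of the window differences, a choice made after the values were seen, windows 1 and 2 summed to 6.09 ± 1.27 CPM in River 1 and 9.90 ± 0.606 CPM in Lake 2, and windows 6 and 7 to 4.45 ± 2.10 CPM in River 1 and 10.7 ± 2.07 CPM in Lake 2. Between them, windows 3 to 5 summed to 11.7 ± 1.13 CPM in River 1 and 9.11 ± 0.860 CPM in Lake 2. The split fixes the direction of each stretch, so these sums only give the sizes, and no window from 3 to 5 passed edgeR's quasi-likelihood test (adjusted p = 0.230 to 0.896). Of its 7 windows, 4 were below 0 and 3 above.

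The contrast with the other genes also showed in the likeness of whole profiles. Over the 7 windows of SMAD3, Pearson's r between a River 1 pool and a Lake 2 pool was -0.37 to 0.22 with a median of -0.22 over the 9 pairs. Within River 1 it was 0.51 to 0.89, and within Lake 2 it was 0.62 to 0.99. For HSPA8, r over pairs from different sites was 0.39 to 0.89 with a median of 0.73 over 10 windows. For RAB11B it was 0.48 to 0.96 with a median of 0.88 over 4 windows. The profiles of the sites were thus more alike there than at SMAD3. Within sites the medians were 0.54 (River 1) and 0.81 (Lake 2) for HSPA8, and 0.94 (River 1) and 0.76 (Lake 2) for RAB11B. Pairs from 1 site were thus not always more alike than pairs from different sites. These values are a description across neighbouring windows, which share reads and are no replicates.

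**Figure D4:**
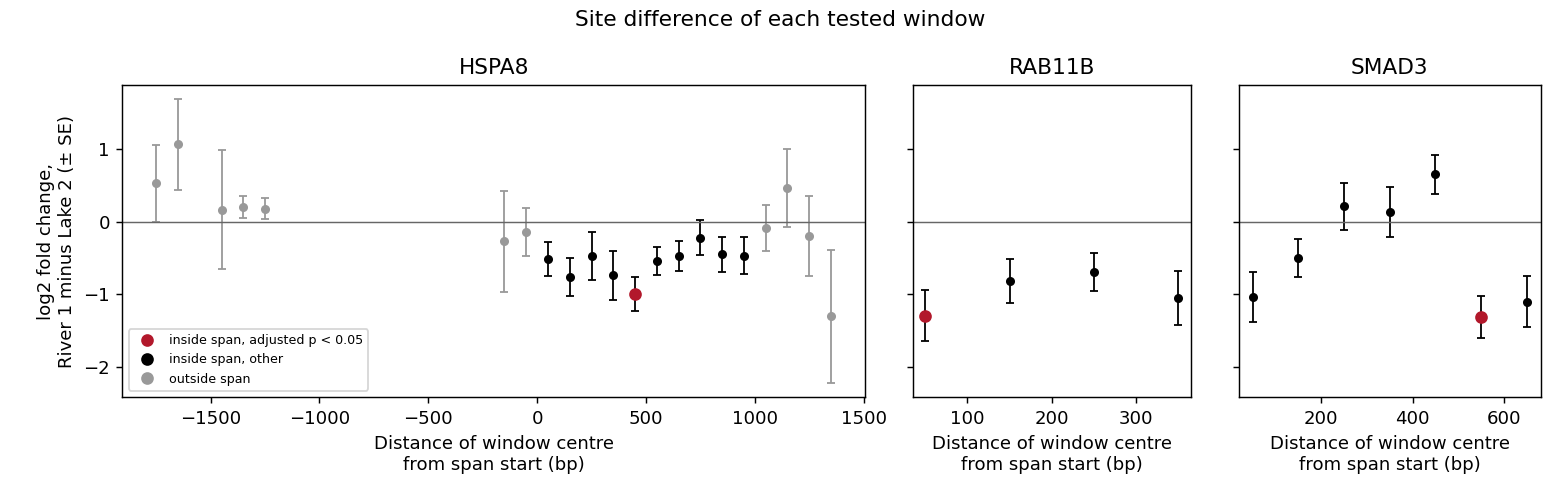
Log2 fold change (River 1 minus Lake 2, y axis, bars ± SE) of every tested window of the 3 contigs by distance from the start of the span (bp), with span windows in black, windows outside in grey and the 3 called windows in red. All black points are below 0 at HSPA8 and RAB11B, whereas SMAD3 has 3 above 0 between lower ends.

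Other genes of endocytosis and membrane traffic were taken from spans that the study called between Lake 1 and River 2, other pools that are not analysed here. They were ARF6, a GTPase of plasma membrane and endosome traffic, EHD3, an ATPase of endocytic recycling, RAB8A, a GTPase of traffic to the cell surface, vps26a, a subunit of retromer, AP1M1, a subunit of the AP-1 clathrin adaptor, copb1, a subunit of the COPI coat, and LRP1, an endocytic receptor. AP1B1 and RHOC stand in the study's lists for both site pairs and were left out. Of 27 windows tested in these 7 spans, 0 were called by edgeR's quasi-likelihood test, against 1.42 percent of all windows, and 0 by edgeR's exact test or DESeq2. At an unadjusted p-value under 0.05 there were 10, all lower in River 1, against 14.3 percent of all windows in either direction and 9.0 percent lower in River 1. The lowest adjusted p-value was 0.116. Of the 27, 25 had a log2 fold change below 0 and 2, in copb1 and LRP1, were above, with a median of -0.46.

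ARF6 (29245901 to 29246100) had 3.82, 1.90 and 5.95 CPM in River 1, and 9.60, 6.96 and 8.26 CPM in Lake 2, a log2 difference of the means of -1.09. RAB8A (13632801 to 13632900) had 3.82, 2.22 and 2.87 CPM in River 1, and 6.15, 4.08 and 5.33 CPM in Lake 2, and vps26a (7816201 to 7816900) had 34.9, 28.5 and 22.1 CPM in River 1, and 38.0, 35.8 and 40.0 CPM in Lake 2. In these 3 genes every River 1 pool lay below every Lake 2 pool, each with the smallest exact permutation p this design allows, 0.1. In EHD3, AP1M1, copb1 and LRP1 the pools of the sites overlapped, with log2 differences of -0.26, -0.54, -0.40 and -0.26 and exact p-values of 0.3, 0.3, 0.2 and 0.2.

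All 7 spans thus had a lower mean in River 1, but so did most spans of the same list. Of its 127 spans with a gene name on contigs not called between River 1 and Lake 2, 91 (71.7%) had a lower summed signal in River 1, with a median log2 difference of -0.33, and 29 (22.8%) had every River 1 pool below every Lake 2 pool. A lower value in River 1 was thus common in that list, and nothing particular to traffic genes is read from their direction. Of the 576 tested windows of those spans, 67.5% were below 0, against 50.4 percent of all windows.

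**Figure D5:**
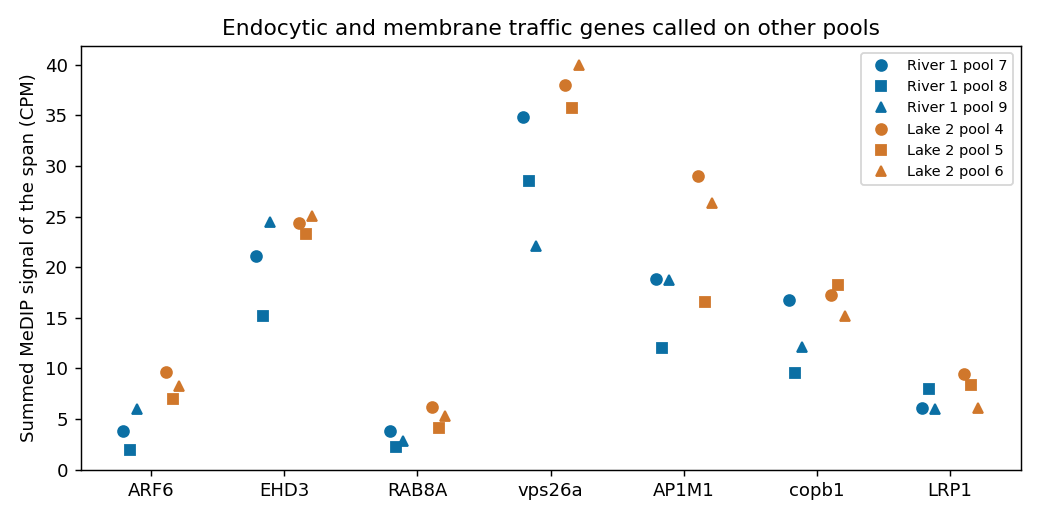
Summed MeDIP signal (CPM, y axis from 0) in each pool of River 1 (blue) and Lake 2 (orange) for the spans of 7 endocytic and membrane traffic genes that were called on pools of other sites. ARF6, RAB8A and vps26a are the genes whose River 1 pools all lie below the Lake 2 pools, and the other 4 overlap.

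The loci of that list whose summed contig signal followed the members most closely over the 6 pools, among 87 with a gene name, were EMIHUDDRAFT_254823 (Pearson's r = 0.91) and FARSA (0.87) for HSPA8, kank1 (0.99) and UCRNP2_6158 (0.98) for RAB11B, and KIF1A (0.98) and Ddx46 (0.97) for SMAD3. The HSPA8 values include the upstream block and were not computed without it. With 6 pools, which share site and depth across loci, these values are a description only.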

How the data were processed

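The authors trimmed and checked the reads (Trimmomatic, FastQC), aligned them with Bowtie2 to the joined P. antipodarum transcriptome, sorted them with SAMtools and deposited raw read counts per 100 bp window, with no normalization. Tool versions are not given in the sources used here. The authors' RPKM values (6 columns) and their edgeR columns (fold change, p-value and adjusted p-value) were not used.

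Counts were fitted here with edgeR 4.0.16 in R 4.3.3 (quasi-likelihood test, TMM, no covariates, all 6 pools) over every window in which the 6 pools summed to 10 counts or more, and over counts summed per contig, contigs being cut at runs of 9 empty windows. P-values were adjusted by Benjamini-Hochberg over all windows or contigs tested. DESeq2 1.42.0 was an alternative. Sums of CPM outside the spans were compared by two-sided exact permutation tests. Other normalizations, filters, tests, contig borders and the removal of each pool were tried.

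The text names the members, and per contig the window with the highest mean CPM, that with the smallest p-value inside and outside the span and each called window, plus the 7 traffic genes and, for each member, the 2 loci most like it. The members and lists were chosen with earlier results of these data known. MeDIP gives enrichment, not a methylation percentage, and adjacent windows share fragments. Intervals of counting error were not computed, and reads carry no molecular identifiers.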

Additional observations from a re-analysis of the deposited data

How the results depend on the processing

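Of 198 values recomputed under an alternative, 164 kept their direction and side of the threshold (or moved little), 23 single windows or contigs lost a call, 9 moved further and 2 changed sign. The number of called windows, 3 in the main fit, was itself among these values. Falls to 0 or 1 are among the 9, and changes to 2 or 4 among the 164, so lost calls are not only in the 23. The 164 include values that could not change, such as the share of SMAD3 when a pool was left out, since its span fills the contig. They also include windows that were not called to begin with, so the number is no measure of how stable the calls were. Among the windows of the 3 contigs, 3 were called, against 0 by DESeq2's Wald test (4 at an unadjusted p-value under 0.05, 10 windows called of all 151608) and 0 to 4 when 1 pool was left out, with 0 without pool 8, 9 or 6 and 1 without pool 4. The RAB11B contig was not called with library size only (log2 fold change -0.95, adjusted p = 0.0739 in edgeR's quasi-likelihood test) or with a border at 15 empty windows, which joins it to its neighbours (-0.054), and it was -1.16 to -0.79 when 1 pool was left out. The difference outside the HSPA8 span, 0.18 on the log2 scale, changed sign with a border at 5 empty windows (-0.11) or at 15 (-0.013). The difference in the share of counts inside the HSPA8 span was -3.86 percentage points with a border at 5 and -0.488 with 15, while with 15 it was -1.60 for RAB11B and -2.56 for SMAD3. Of the called windows, 11444001 of RAB11B was also lost with library size only (adjusted p = 0.059, edgeR's quasi-likelihood test), and all 3 were lost by DESeq2, with adjusted p-values from 0.537 to 0.662. The span sums kept their direction without any 1 pool, at -0.63 to -0.46 for HSPA8, -1.12 to -0.75 for RAB11B and -0.56 to -0.33 for SMAD3. The border at 5 empty windows for the called windows and the values without the 2 strongest windows were added after seeing the data. The exact test of the upstream block alone was not planned. No paired analysis was possible because the labels number the pools of the sites differently (7 to 9 in River 1 and 4 to 6 in Lake 2) and nothing pairs them. Counts per window, from 3 to 63 in the spans, limit the precision most at RAB11B.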
